A study of Citrus unshiu with 2 samples.

Results

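Photosystem, antenna and carbon fixation genes were followed in mature stems of satsuma mandarin (Citrus unshiu). Among the 2568 genes for which the authors deposited descriptions, 42 matched photosynthesis terms, out of 23159 genes measured in all. A gene was taken in when its RefSeq, UniProt or Pfam description named a photosystem, a chlorophyll a-binding protein, the oxygen-evolving complex, plastocyanin, Rubisco (ribulose bisphosphate carboxylase), phosphoribulokinase, an early light-induced protein or the cytochrome b6 complex. The text rule used no measured value itself, but it could reach only genes of a table that its authors had selected on these libraries. The light drought trees, wild type by genotype, had their soil left to dry by evaporation to about 15% moisture, a treatment of 75 days, and the control trees, wild type too, received normal water and were sampled at the same Day 75. All trees stood under plastic cover with confined roots, 20 were set aside for each group, and how many entered each RNA-seq library is not stated. Each group has 1 library, so no difference between the conditions has a replicate check, no p-value was computed, and differences between trees cannot be told apart from the treatment.

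Photosystem II uses light to split water, and its oxygen-evolving complex holds the manganese cluster that does so. Electrons then pass through the cytochrome b6f complex and the copper protein plastocyanin to photosystem I. Antenna proteins that bind chlorophyll a and b feed light energy to both photosystems, and Rubisco, kept open by its activase, fixes carbon dioxide. In green stems this apparatus works in the chloroplasts of the outer tissues.

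The name of the group held only in part. Of the 42 genes, 6 matched through the Pfam Plastocyanin-like domain and are described as lamin-like proteins, umecyanin, mavicyanin or a blue copper protein, or carry no RefSeq description. Proteins of that domain family are mostly anchored at the cell surface and take no part in photosynthesis, so these 6 are described apart as cell-surface copper proteins. The other 36, called photosynthesis genes here, held 9 of photosystem II, 1 of the oxygen-evolving complex, 10 of the antenna with the related PsbS, 2 of cytochrome b6f, 1 plastocyanin, 9 of photosystem I, 1 early light-induced protein, 1 Rubisco small chain and 2 activases. No description named phosphoribulokinase, and none placed the Rubisco large chain among the 42. Carbon fixation thus rests on 3 genes.

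Almost all photosynthesis genes stood moderately higher in light drought stems. Of the 36, 35 had a log2 ratio of light drought over control above 0, and the median ratio was 0.59, with the middle of the distribution between 0.44 and 0.69. Levels are RPKM, in which the reads of a gene are divided by the length of its exons and by the library total of reads in genes. The log2 ratio was taken after adding 0.5 RPKM to each level, and genes reaching an RPKM of 1 in either library were kept. The median over all 15654 kept genes was 0.0024, and 50.4% of them lay above 0. A gene was counted as risen or fallen when it differed at least 2-fold on this scale. By that rule 2 photosynthesis genes rose and 1 fell, where 0.882% of all kept genes rose and 2.12% fell. One of the rises, the photosystem I antenna gene Lhca6, passed the expression minimum through its light drought level alone, and among the 35 photosynthesis genes with an RPKM of at least 1 in both libraries 1 rose and 1 fell. At least 1.5-fold higher were 18 of the 36, against 4.03% of all kept genes.

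The counts have to be read against the way the described genes were listed. The described table is named by its authors as one of differential genes, and descriptions exist only for its genes. Kept genes outside it had a log2 ratio within 0.2 of 0 in 63.0% of cases. Kept genes inside it without statistics from the authors did so in 15.2% of cases, and none of the 36 photosynthesis genes did. A photosynthesis gene with little difference between the libraries was therefore less likely to be among those described. Both directions were listed, and 43.6% of the 2055 kept genes of the table lay above 0. Among those genes 5.99% were at least 2-fold higher, 14.9% at least 2-fold lower and 18.7% at least 1.5-fold higher.

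**Figure D1:**
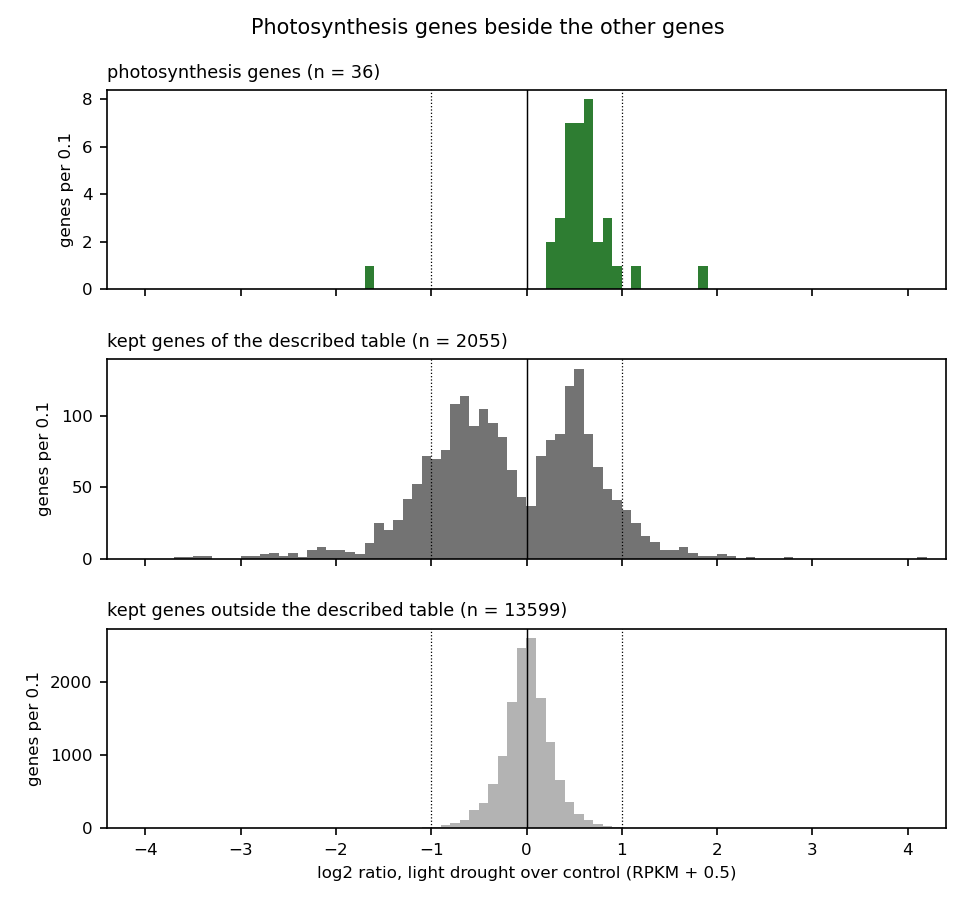
Number of genes per 0.1 of log2 ratio (light drought over control, RPKM + 0.5) for the 36 photosynthesis genes, the 2055 kept genes of the described table and the 13599 kept genes outside it, with dotted lines at 2-fold. The described genes form a peak on each side of 0, and the photosynthesis genes lie above 0 with early light-induced protein 1 furthest out at 1.82, except the Rubisco small chain at -1.64.

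The light drought library held 31760704 reads in genes and the control library 32856618. Counting error was small for most of the 36. An exact 95% interval of the RPKM ratio, computed from the reads and covering counting error only, lay wholly above 0 for 34 of them and wholly below 0 for 1, against 25.4% and 25% of all kept genes and 35.6% and 47.3% of those in the described table. The exception, a Psb27 gene, spanned 0. Among the 35 photosynthesis genes with an RPKM of at least 1 in both libraries, 33 intervals lay above 0. RNA came from whole stem tissue, where a larger share of green cells and more RNA of these genes per cell cannot be told apart.

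**Figure D2:**
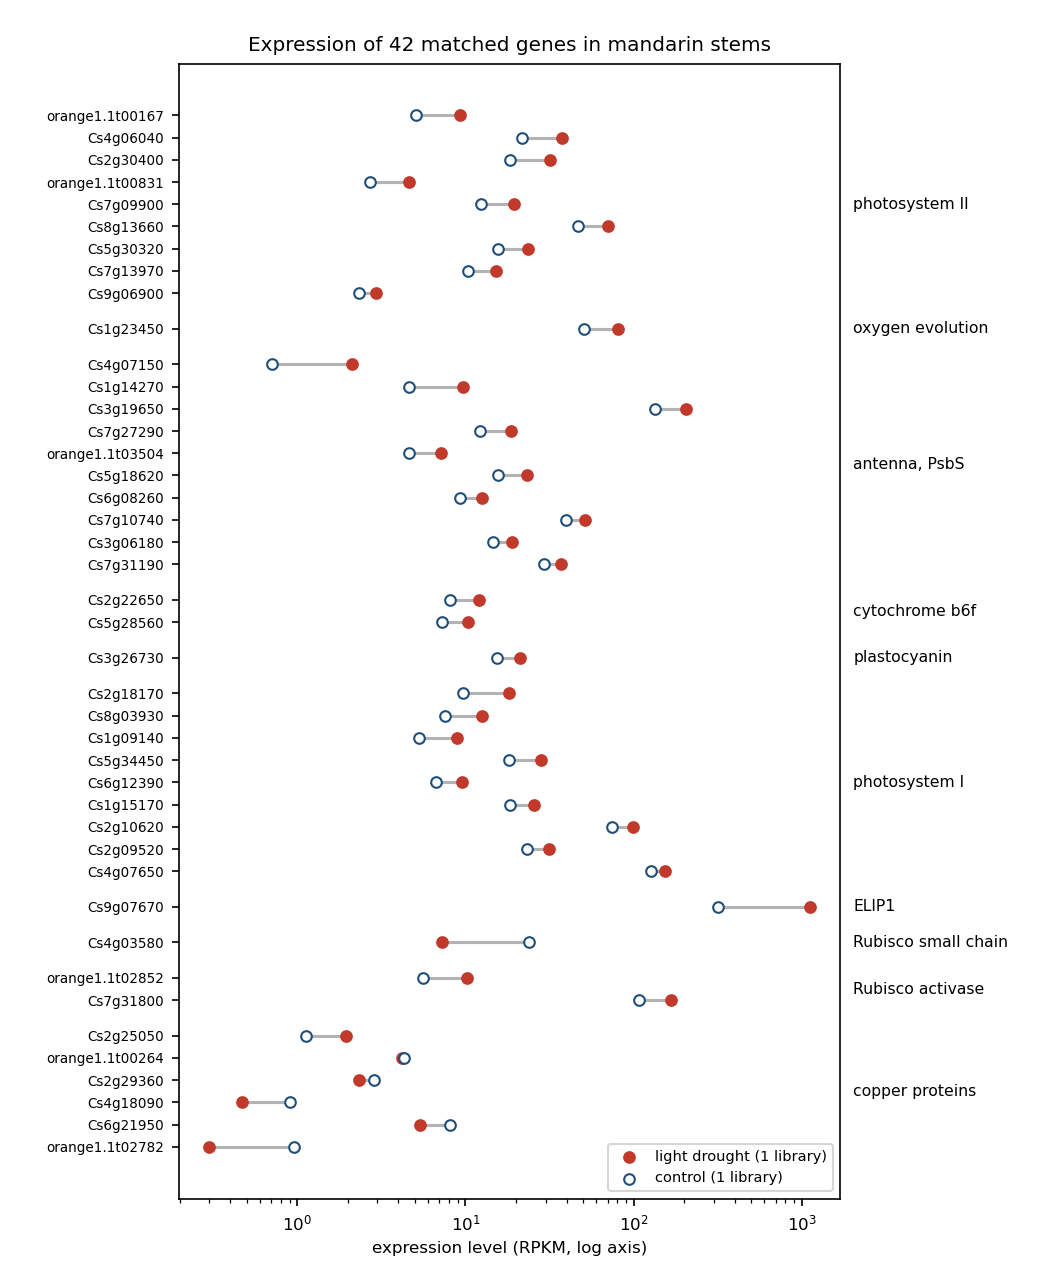
Level of each of the 42 genes (RPKM, log axis) in the light drought library (filled) and the control library (open), grouped by role. Filled points lie to the right of open ones throughout the photosystems, antenna, electron carriers and activases and for early light-induced protein 1. These run from an RPKM of 2.11 against 0.713 up to 1118 against 317, the last being early light-induced protein 1. The Rubisco small chain and most copper proteins lie the other way.

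All 9 photosystem II genes had ratios above 0, between 0.28 and 0.82, with a median of 0.64 and no member at 2-fold. The most abundant was a PsbW gene (Cs8g13660, chromosome 8, 16407261 to 16408881), for a small subunit of the photosystem II core, with an RPKM of 70.8 in light drought against 46.5 in control. That came from 2251 and 1531 reads and gave a ratio of 0.60, with a counting interval of 0.51 to 0.70. A PsbX gene (Cs4g06040), another small core subunit, stood at 37.7 RPKM in light drought against 21.8 in control, from 446 and 267 reads, a ratio of 0.78 with an interval of 0.57 to 1.01. The gene of the photosystem II 5 kDa protein (Cs2g30400) stood at 31.8 RPKM in light drought against 18.4 in control, from 1006 and 602 reads, a ratio of 0.77 with an interval of 0.64 to 0.94. These small proteins of the core thus had similar ratios at levels that differed. The remaining 6 members, which include PsbY, the assembly factor HCF136 and both Psb27 genes of photosystem II repair, ranged from 2.94 to 23.7 RPKM in light drought and from 2.33 to 15.6 RPKM in control. The lowest ratio belonged to the Psb27 gene without a RefSeq description (Cs9g06900), at 2.94 against 2.33 RPKM with a counting interval of -0.042 to 0.71. Exon bases are shared with another gene model for Cs8g13660 and for both PsbX genes, so their reads may have been divided in counting.

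Oxygen-evolving enhancer protein 1 (Cs1g23450, chromosome 1, 25987853 to 25992025), known as PsbO, shields the manganese cluster. It had an RPKM of 81.0 in light drought against 50.9 in control, from 9508 and 6179 reads. The ratio of 0.67 was close to the photosystem II median, and its counting interval ran from 0.62 to 0.72.

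In the antenna the genes of Lhca6 and Lhca5 had the largest ratios. All 10 members lay above 0, from 0.33 to 1.10, with a median of 0.58. Lhca6, described as chlorophyll a/b-binding protein 6 of photosystem I (Cs4g07150, chromosome 4, 4552959 to 4555174), rose to 2.11 RPKM in light drought, against 0.713 in control, from 80 and 28 reads. Its log2 ratio was 1.10 and the counting interval of its RPKM ratio 0.93 to 2.24. Its control level was under the expression minimum, so it was kept through the library in which it was higher, and with a pseudocount of 1 its log2 ratio was 0.86, short of 2-fold. Protein 5 of the same series (Cs1g14270, Lhca5), just short of 2-fold, stood at 9.64 against 4.59 RPKM, from 146 and 72 reads, with a ratio of 0.99 and an interval of 0.65 to 1.50. With a pseudocount of 0.1 its ratio was 1.05, and with library totals that left out the most abundant genes it was 1.01. In Arabidopsis these proteins are known for linking photosystem I to the chloroplast NDH complex of cyclic electron flow, and both are scarce there beside the main antenna.

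The other antenna genes differed less, whether abundant or not. PsbS (Cs3g19650, chromosome 3, 22848061 to 22850927), the photosystem II protein that triggers the release of excess light energy as heat, was the second most abundant photosynthesis gene. Its RPKM was 204 in light drought against 134 in control, from 8489 and 5783 reads, and its ratio was 0.60 with an interval of 0.55 to 0.65. A chlorophyll a-b binding protein of photosystem I by its KEGG identifier (Cs7g10740) stood at 51.7 RPKM in light drought against 39.5 in control, from 2584 and 2045 reads, a ratio of 0.38. The CP29.3 gene (Cs7g31190), of the inner photosystem II antenna, stood at 37.1 RPKM in light drought against 29.4 in control, from 1577 and 1292 reads, and had the lowest ratio of the antenna, 0.33. Both intervals lay above 0, with lower ends of 0.30 for Cs7g10740 and 0.23 for CP29.3. The other 5, among them CP26 and CP29.1, ranged from 7.16 to 23.4 RPKM in light drought and from 4.62 to 15.6 RPKM in control, with ratios of 0.38 to 0.59.

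The electron carriers between the photosystems were higher by similar amounts. The iron-sulfur subunit of cytochrome b6f (Cs2g22650) had 12.0 RPKM in light drought against 8.15 in control, from 630 and 443 reads. Its PetM subunit (Cs5g28560), named by Pfam only, had 10.4 RPKM in light drought against 7.26 in control, from 272 and 196 reads. Plastocyanin itself (Cs3g26730, chromosome 3, 27923465 to 27923971) had 21.1 against 15.3 RPKM, from 339 and 255 reads. The ratio was 0.53 (interval 0.38 to 0.74) for the iron-sulfur subunit, 0.49 (0.25 to 0.79) for PetM and 0.45 (0.22 to 0.70) for plastocyanin, and the intervals overlapped.

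All 9 photosystem I genes lay above 0 as well, between 0.27 and 0.87, with a median of 0.49. A gene of the PsaG/PsaK type (Cs4g07650) had the highest level, 154 RPKM in light drought against 128 in control from 5133 and 4394 reads, and the lowest ratio, 0.27 with a counting interval of 0.21 to 0.33. Subunit III (Cs2g10620), which docks plastocyanin, stood at 99.8 RPKM in light drought against 74.3 in control, from 4734 and 3645 reads, a ratio of 0.42 with an interval of 0.36 to 0.49. The PsaK gene (Cs2g09520) stood at 31.3 RPKM in light drought against 23.4 in control, from 994 and 768 reads, a ratio of 0.41 with an interval of 0.28 to 0.56. Those 3 most abundant genes thus had the smallest ratios of the photosystem. The other 6 ranged from 8.86 to 28.2 RPKM in light drought and from 5.32 to 18.3 RPKM in control, with ratios of 0.48 to 0.87. Subunit XI (Cs2g18170), on the side where mobile antenna docks in plants, led them at 18.2 against 9.73 RPKM, with an interval of 0.73 to 1.08 that did not overlap that of Cs4g07650.

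Early light-induced protein 1 (Cs9g07670, chromosome 9, 4780623 to 4781599) stood far above the rest. Proteins of this family are relatives of the antenna that bind pigment during light stress and greening. Its level rose to 1118 RPKM in light drought, against 317 in control, from 31150 and 9145 reads. The log2 ratio was 1.82, with a counting interval of 1.78 to 1.85, and only 0.0767% of kept genes had a higher ratio. No other photosynthesis gene was as abundant in either library or had as high a ratio.

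Carbon fixation genes went both ways. The Rubisco small chain gene (Cs4g03580, chromosome 4, 1883011 to 1884534), whose product is a structural subunit of the enzyme, fell to 7.30 RPKM in light drought, against 23.9 in control. That was 301 reads against 1018, a log2 ratio of -1.64 with a counting interval of -1.90 to -1.52. It was the single photosynthesis gene below 0, and 99.6% of kept genes had a higher ratio. Rubisco small chains form a multigene family in plants, this is the only member that the descriptions name, and reads of near-identical copies may have been divided among them. The activase genes lay above 0, with 168 RPKM in light drought against 108 in control for Cs7g31800, from 13333 and 8853 reads, a ratio of 0.64 with an interval of 0.60 to 0.68. The second activase gene (orange1.1t02852) had 10.2 RPKM in light drought against 5.62 in control, from 466 and 265 reads, a ratio of 0.81 with an interval of 0.64 to 1.09.

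**Figure D3:**
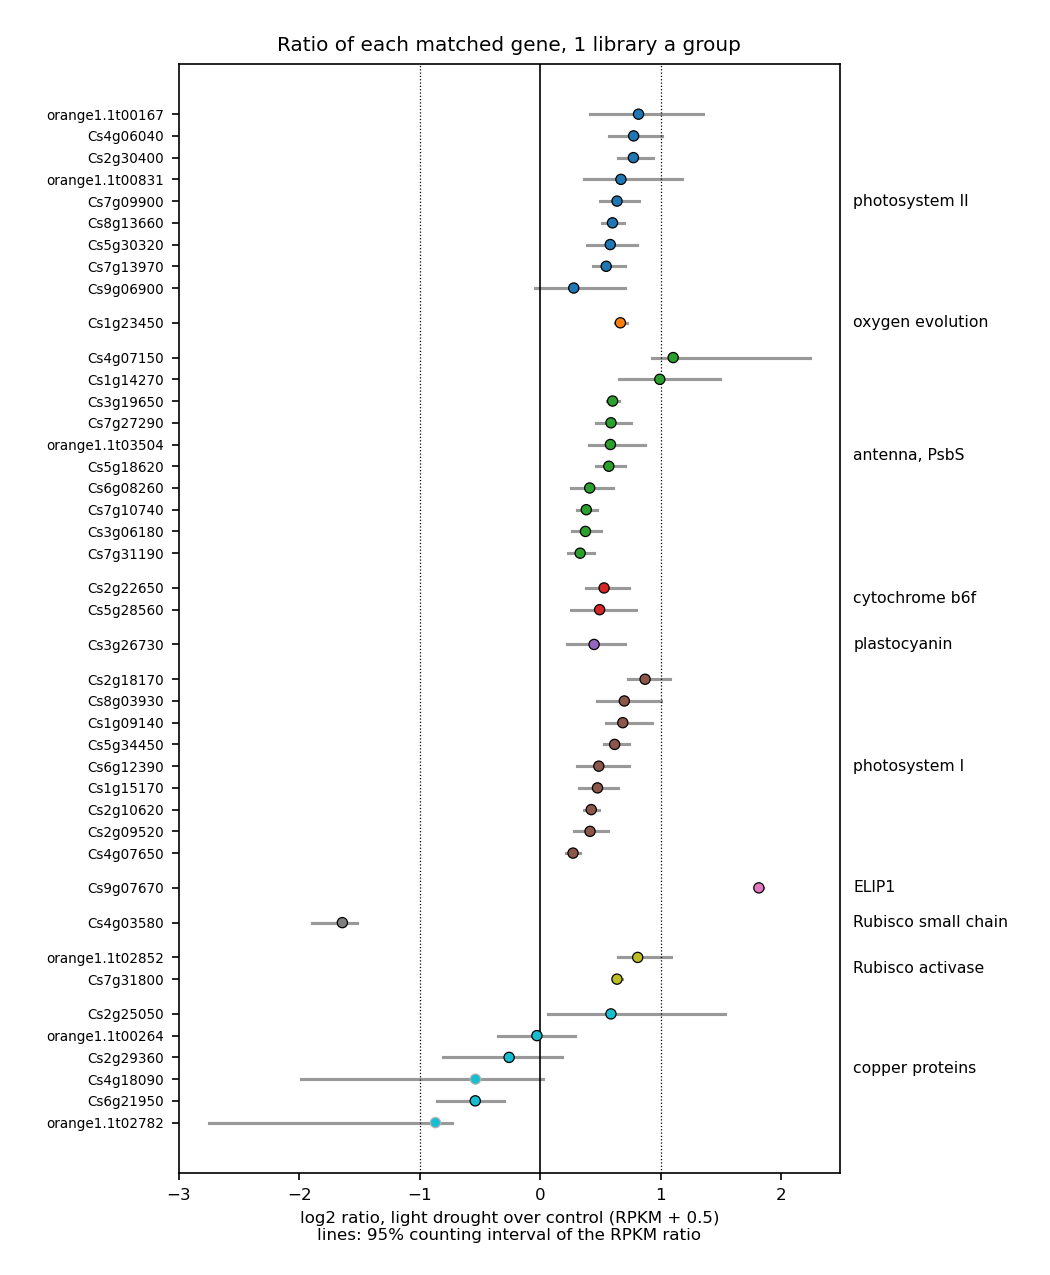
Log2 ratio of light drought over control (RPKM + 0.5) for each of the 42 genes by role, with the 95% counting interval of the RPKM ratio as a line, dotted lines at 2-fold and pale outlines for the 2 genes under the expression minimum. Points of the photosystems, antenna and carriers lie between 0.27 and 1.10, early light-induced protein 1 at 1.82 and the Rubisco small chain at -1.64.

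The cell-surface copper proteins did not share the shift. Of the 6, 4 passed the expression minimum, with 1 above 0 and 3 below, between -0.54 and 0.59, and none at 2-fold. Mavicyanin (Cs2g25050) had 1.95 RPKM in light drought against 1.13 in control, from 45 and 27 reads, with an interval of 0.066 to 1.53. A lamin-like gene (Cs6g21950) had 5.39 against 8.06 RPKM, from 179 and 277 reads, with a counting interval of -0.86 to -0.30. The blue copper protein (orange1.1t00264) had 4.22 against 4.31 RPKM, from 158 and 167 reads, with an interval of -0.35 to 0.29. Cs2g29360 had 2.32 against 2.88 RPKM, from 64 and 82 reads, with an interval of -0.80 to 0.18. Both intervals spanned 0. The 2 genes under the minimum were umecyanin (Cs4g18090), at 0.470 against 0.909 RPKM from 14 and 28 reads, and a second lamin-like gene (orange1.1t02782), at 0.297 against 0.957 RPKM from 12 and 40 reads. The median log2 ratio was 0.58 over the 40 kept genes and 0.59 over the photosynthesis genes alone.

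Genes that share a Pfam family within a role formed 6 pairs, with the chlorophyll a-b binding family of the antenna left out. The counting intervals of the ratios overlapped within every pair. In the family left out they did not all overlap, at 0.93 to 2.24 for Lhca6 and 0.30 to 0.47 for Cs7g10740. Of the activases, Cs7g31800 was 16.4 times as abundant as orange1.1t02852 in light drought and 19.2 times in control, while their ratios differed by 0.17. The PsbW genes Cs8g13660 and Cs5g30320, whose levels differed 2.99-fold in light drought and 2.97-fold in control, had ratios of 0.60 and 0.58. The PsbX genes Cs4g06040 and orange1.1t00167, 4.05-fold apart in light drought and 4.31-fold in control, had 0.78 and 0.82. The PsaN genes Cs8g03930 and Cs1g09140, of which the second shares exon bases with another gene model, had 0.70 and 0.69. The widest gap, 0.39, was between the Psb27 genes, at 0.67 for orange1.1t00831 and 0.28 for Cs9g06900, whose levels were 1.58-fold apart in light drought and 1.17-fold in control. The less abundant gene had the higher ratio in 3 of the 6 pairs. The pair of PsaG/PsaK type may join different subunits, since its Pfam family covers both.

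Summed over all 42 genes, the share of reads in genes was 0.302% in light drought (exact binomial interval 0.300 to 0.304%) and 0.170% in control (0.168 to 0.171%). Early light-induced protein 1 alone took 0.0981% of light drought reads and 0.0278% of control reads. Without it the shares were 0.204% and 0.142%, a ratio of 1.44. By role, the ratio of shares was 1.35 for photosystem I, 1.38 for plastocyanin, 1.44 for the antenna with PsbS and 1.46 for cytochrome b6f. It was 1.56 for photosystem II, 1.57 for the activases, 1.59 for PsbO and 3.52 for early light-induced protein 1. The share was lower in light drought for the cell-surface copper proteins (0.786) and the Rubisco small chain (0.306).

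The authors' deposited table gives a fold change for 5 of the 42 genes, against 31.9% of all genes listed in it. Of these, 3 are higher and 2 lower, where the authors' deposited table has 9.27% of its genes higher and 22.7% lower. In the authors' deposited table early light-induced protein 1 has a log2 fold change of 1.82, Lhca6 one of 1.56 and Lhca5 one of 1.07. The authors' deposited table gives the Rubisco small chain -1.71 and the lamin-like gene orange1.1t02782 -1.68. The other 37 genes have no statistics there, and the ground for listing them was not stated in the labels or headers.

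Other genes of the photosynthetic apparatus showed the same direction for the most part. Text lists of chlorophyll metabolism, the remaining Calvin cycle, photorespiration, ferredoxin and NDH, ATP synthase, thylakoid proteins, carotenoids, plastid gene expression, light receptors and plastid thioredoxins named 79 further genes, of which 75 were kept. Of these, 69 lay above 0 and 6 below, where 50.4% of all kept genes and 43.6% of those in the described table lay above 0. Their median ratio was 0.50. A Staygreen gene and thioredoxin M3, both above 0, passed the expression minimum through their light drought level alone. At 2-fold 1 of the 75 was higher and none lower. The direction above 0 was thus shared by genes outside the photosystems, and the same limit from the listing of described genes applies to them.

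**Figure D4:**
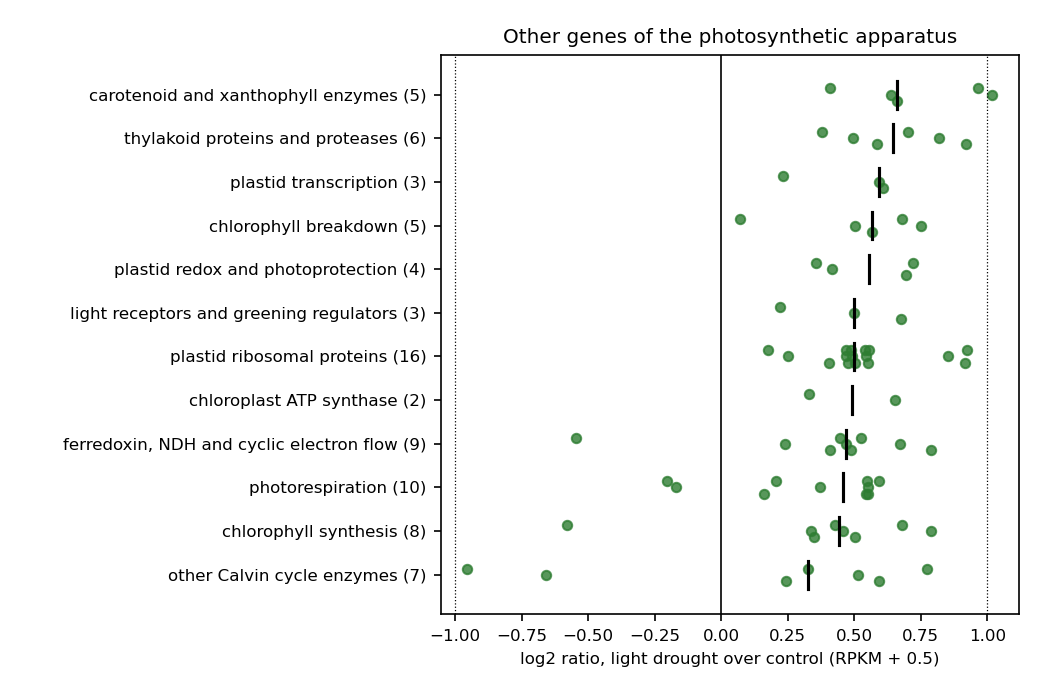
Log2 ratio of light drought over control (RPKM + 0.5) for kept genes of 12 text lists outside the 42 genes, with list medians as bars, kept genes in brackets and dotted lines at 2-fold. List medians run from 0.32 for other Calvin cycle enzymes to 0.66 for carotenoid enzymes, and a gene matched by 2 lists is drawn in both. The Calvin cycle list includes 2 plastid pyruvate dehydrogenase genes that do not belong to the cycle, at -0.66 and -0.95.

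Among 8 chlorophyll synthesis genes 7 lay above 0. Divinyl chlorophyllide a 8-vinyl-reductase (Cs9g04920), an enzyme of late chlorophyll synthesis, had 9.92 RPKM in light drought against 5.53 in control, a ratio of 0.79. The translocon component genes Cs9g03000 and Cs9g02990, matched by their names alone, had ratios of 0.68 and 0.50. The exception was geranylgeranyl diphosphate reductase (Cs2g26780), which makes the phytol side chain, at 11.3 against 17.2 RPKM (-0.58). It is named here after its value was seen. All 5 genes matched to chlorophyll breakdown lay above 0, from 0.070 to 0.75, and 2 of them are translocon components matched through a Pfam family name. The highest ratio was that of a Staygreen gene (Cs3g20450), whose family acts in chlorophyll loss, at 1.05 against 0.425 RPKM from 48 and 20 reads. Its control level was under the expression minimum, so it was kept through the library in which it was higher.

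Of the 7 kept genes matched to the rest of the Calvin cycle, 5 lay above 0. Among those 5, phosphoglycolate phosphatase 1B (Cs6g05110) is an enzyme of photorespiration and matched both lists. Glyceraldehyde-3-phosphate dehydrogenase A (Cs2g14940), the reducing step of the cycle, had 59.7 RPKM in light drought against 34.7 in control, a ratio of 0.77. Both genes below 0 are subunits of plastid pyruvate dehydrogenase that matched through a transketolase domain and do not belong to the cycle. Cs2g03260 had 6.78 RPKM in light drought against 13.6 in control (-0.95), and Cs8g06950, named here after its value was seen, had a ratio of -0.66. A transketolase (Cs7g24920), also named after its value was seen, stayed under the expression minimum, with 4 reads in light drought against 56 in control. Photorespiration recycles the product of Rubisco's reaction with oxygen, and 8 of the 10 genes matched to it lay above 0. Phosphoglycolate phosphatase 1B (Cs6g05110), its first enzyme, had 12.1 against 7.83 RPKM (0.59), and the glycine cleavage H protein gene Cs7g22860 had 13.9 against 9.33 RPKM (0.55). The genes below 0, named here after their values were seen, were a more abundant glycine cleavage H protein gene and one of serine synthesis. The first (Cs2g11160) had 37.9 RPKM in light drought against 42.6 in control (-0.17), and the D-3-phosphoglycerate dehydrogenase gene orange1.1t04497 had 7.04 against 8.19 RPKM (-0.21).

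Ferredoxin and NDH genes lay above 0 in 8 of 9 kept cases. Among those 8, ferredoxin-dependent glutamate synthase (orange1.1t03572, 0.45) was matched by the word ferredoxin in its name. The leaf-type ferredoxin--NADP reductase (Cs1g25510), which ends linear electron flow, had 73.7 RPKM in light drought against 46.1 in control (0.67). The NDH subunit PNSB4 (Cs5g10850) had 49.1 against 28.3 RPKM (0.79). The gene below 0 is described as a root-type ferredoxin (Cs8g14960), at 10.9 against 16.2 RPKM, and is named here after its value was seen. Both chloroplast ATP synthase genes lay above 0, at 0.65 for the gamma chain (Cs2g03080) and 0.33 for subunit b' (Cs7g05570).

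Thylakoid proteins and carotenoid enzymes had the highest list medians, 0.64 and 0.66. All 6 thylakoid genes lay above 0, with orange1.1t02579, a lumenal protein, at 3.26 RPKM in light drought against 1.49 in control (0.92). A gene of the thylakoid phosphoprotein TSP9 family (Cs8g19960) had 31.9 against 17.9 RPKM (0.82). Of 5 kept carotenoid genes, the only 2-fold rise was that of monooxygenase 2 (Cs1g04870), at 13.2 RPKM in light drought against 6.27 in control (1.02), which matched through a lycopene cyclase domain. Beta-carotene isomerase D27 (Cs5g01410), of strigolactone synthesis, had 11.2 against 5.51 RPKM (0.97).

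Kept genes of plastid gene expression and of greening regulators lay above 0. The 3 kept sigma factors of plastid transcription lay between 0.23 and 0.61, with sigD (Cs7g02120) at 23.4 RPKM in light drought against 15.2 in control and Cs7g15990 at 17.6 against 11.5. Both genes named GATA transcription factor 22, of a family that promotes greening in Arabidopsis, lay above 0, with 12.5 against 7.66 RPKM for Cs4g14080 (0.68) and 8.14 against 5.62 RPKM for Cs4g18510 (0.50). PHYTOCHROME KINASE SUBSTRATE 2 (Cs7g03880), of the same list, was under the expression minimum and lower, at 0.215 RPKM in light drought against 0.926 in control from 15 and 67 reads (a log2 ratio of -0.997), and is named here after its value was seen. All 16 plastid ribosomal genes lay above 0, led by the ribosome-binding factor PSRP1 (orange1.1t02570, 0.92) and protein L5 (orange1.1t00409, 0.92). The 4 plastid thioredoxin genes did too, led by CDSP32 (Cs3g26690) at 22.4 against 13.4 RPKM (0.72) and thioredoxin X (Cs7g13660) at 21.2 against 12.9 RPKM (0.69). Thioredoxin M3 (Cs8g06060), at 1.03 RPKM in light drought against 0.650 in control, passed the expression minimum through its light drought level alone.

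Markers of other stem tissues in the described table gave no common direction. The summed level of 10 xylem and secondary wall genes was 109 RPKM in light drought and 82.4 in control, with 4 of 8 kept genes above 0. Cellulose synthase subunits of the secondary wall and laccases were not among them, so wood was represented by caffeoyl and fasciclin-like genes alone. These families went opposite ways. All the caffeoyl genes lay above 0, up to 1.18, and all the fasciclin-like genes lay below 0, down to -1.36. For 4 phloem genes the sums were 7.70 and 6.77 RPKM, with 3 above 0, and for 4 epidermal lipid-transfer genes 111 and 209 RPKM, with 1 above 0. The phloem gene below 0 (Cs3g07110), at 0.392 RPKM in light drought against 1.08 in control, passed the expression minimum through its control level alone. For 4 genes matched to floral organs the sums were 4.99 and 7.06 RPKM, with 2 above 0 and 2 below. The 2 below, DEFICIENS (-1.66) and AGL6 (-1.42), passed the expression minimum through their control level alone. Above 0 were AGL15 (0.25) and AGL28 (0.72), and AGL28 passed through its light drought level alone. No root gene was matched. The part of tissue make-up in the values of the photosynthesis genes was not tested.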

How the data were processed

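RNA-seq was made from stems of 2 groups with 1 library each. Libraries were stranded and made from mRNA, per the labels' protocols, and reads were handled with Trimmomatic 0.36, per the submitters' processing notes. Genome build, aligner, read counter and strand setting remain not given in the sources used here. Coordinates are those of the deposited gene models. RPKM values were deposited by the authors, as were, in the authors' described table, the p-values (with false discovery rates) and log2 fold changes for some genes. Multiplied by exon length and library total, 100% of RPKM values above 0 came out as whole reads, to a tolerance of 0.01 read. Here log2((light drought + 0.5)/(control + 0.5)) was computed for genes with an RPKM of at least 1 in either library, with exact 95% conditional (Clopper-Pearson) intervals of the RPKM ratio and exact binomial intervals of read shares. These cover counting error only, since each group has 1 library. Copies made in PCR are not independent, and whether they were collapsed is not stated, so the intervals may be too narrow even for that. At the median gene length of 1692 bases, 3 reads equal an RPKM of 0.0558 in light drought and 0.0540 in control. The calculation was tested on simulated data. Members and lists were chosen with earlier results of these data known. All members could be named. Full values went to members at 2-fold, against the main direction, in roles of 3 or fewer, or among the 3 most abundant of larger roles, and in further lists to the pair of kept genes with the largest absolute ratios. A reference table of another assembly matched 0 of the identifiers, and no sequence was used. Alternatives were other pseudocounts, filters, thresholds, scalings and member rules. Software was Python 3.11.15, numpy 2.4.6, pandas 2.3.3, scipy 1.17.1 and matplotlib 3.10.9.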

Additional observations from a re-analysis of the deposited data

How the results depend on the processing

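No paired analysis was possible because only 1 library stands for each condition, which also means that none could be left out. The member median of 0.58 stayed between 0.53 and 0.60 under every setting run, and no single ratio changed sign in 286 recomputed values. Other pseudocounts and filters cannot change the sign of a ratio, so only the values under other scalings could have done so. Members higher and lower at 2-fold numbered 2 and 1. They numbered 3 higher, with Lhca5 added, at a pseudocount of 0.1 or with totals without the most abundant genes, 1 higher at a pseudocount of 1 or a minimum RPKM of 5, 2 lower with equal sums of RPKM, 19 higher at 1.5-fold, and 0 and 0 at 4-fold. All kept genes higher and lower numbered 138 and 332. They were 208 higher at a pseudocount of 0.1, 88 and 204 at one of 1, 68 and 159 with a minimum RPKM of 5, 513 lower with equal sums, 631 and 965 at 1.5-fold and 8 and 44 at 4-fold. For genes of the further lists, 1 higher and 0 lower became 4 higher at a pseudocount of 0.1, 0 at one of 1, 1 lower without a filter, 0 higher and 3 lower with equal sums, 23 and 2 at 1.5-fold and 0 higher at 4-fold. With equal sums both libraries were rescaled while the pseudocount and the minimum stayed fixed, and 16563 genes passed the minimum, against 15654 as reported. The lower member added there was the lamin-like gene orange1.1t02782, at -1.06 against -0.87 as reported. The cause of the other moves under other pseudocounts and equal sums was not tested. Chosen after seeing the data, the 21 members with a KEGG photosynthesis pathway gave 20 above 0 and 1 higher at 2-fold. The 40 kept members gave 36 above 0 and 2 higher at 2-fold. Depth limits Lhca6 most among the called genes, with 28 control reads.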

Other observations

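The text rule passed over 9 genes of photosystem subunit families that the descriptions name in other words, found after values were seen. They belong to the Pfam families PsaD, a stromal subunit of photosystem I that binds ferredoxin, and PsbP and PsbQ, of the oxygen-evolving complex and its relatives, and 1 of them, an NDH subunit (Cs7g03580), also stood in the ferredoxin and NDH list. Of these, 8 were kept and all 8 lay above 0, with a median log2 ratio of 0.58 and none at 2-fold. The PsaD gene Cs9g06660 had 70.4 RPKM in light drought against 39.0 in control, a ratio of 0.84 with a counting interval of 0.75 to 0.95. The other PsaD gene, Cs5g31180, had 11.2 against 7.23 RPKM (0.60), and a PsbQ gene, Cs2g07330, had 16.9 against 10.7 RPKM (0.63).

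The gene models beside the Rubisco small chain did not share its direction. Cs4g03590, on the opposite strand and 111 bases away, had 100.2 RPKM in light drought against 83.7 in control, a ratio of 0.26, and Cs4g03570, 105 bases away on the other side, had 1.89 against 1.18 RPKM. Neither is described in the files. Next to early light-induced protein 1, at a distance of 2483 bases, the abundant undescribed gene Cs9g07680 had 726 RPKM in light drought against 529 in control, a ratio of 0.46. The nearer neighbour on the other side, Cs9g07660 at 2078 bases, had 8.94 RPKM in light drought against 12.1 in control, a ratio of -0.42 with a counting interval of -0.58 to -0.31.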
